A study of Homo sapiens with 6 samples.

Results

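ETS-family transcription factors were followed across SCC25 cells, an established line of human oral squamous cell carcinoma, cultured under hypoxia or normoxia. The genes are 10 named members, ETS1, ETS2, ELF1, ELF3, EHF, ELK3, ETV4, ETV5, ERF and SPDEF, taken by symbol from a table of 21776 genes. All 10 had a row, and the annotation deposited with the counts also placed each of them in the ETS family, to which it assigned 20 genes among 601 with a transcription factor family. The members had been selected on their hypoxia against normoxia values, so those values are given as a description, without a test.

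The 6 bulk RNA-seq libraries comprised 3 of cells kept for 12 h in 1% O2 and 5% CO2 and 3 of cells kept for the same time in air with 5% CO2, all labelled wild type. The labels do not say whether the libraries of a condition came from separate cultures, so the spread between them may be technical. By replicate, the hypoxic libraries held 30186813, 36076088 and 32272716 counts on genes, and the normoxic libraries 37278703, 29637189 and 29981208. The single line limits both conditions as a model, and in bulk RNA fewer cells of a type and less RNA per cell cannot be told apart. The labels name SCC25, while the study's text also names SCC9, another oral squamous carcinoma line, for this experiment.

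The libraries carried the markers of their labels. All 15 hypoxia response genes examined, among them CA9, NDRG1 and VEGFA, were higher under hypoxia by edgeR's quasi-likelihood test with Benjamini-Hochberg adjustment (adjusted p under 0.05), and their median log2-fold change of 2.71 compares with 0.02 for the 14255 genes that were tested. Of 10 squamous epithelial markers, 9 were expressed at a testable level, of which 4 were higher (KRT17, DSG3, CDH1 and PERP), 4 lower (KRT5, KRT6A, SFN and EPCAM) and TP63 not called. KRT6A, a keratin of stressed and wounded epithelium, stood at 0.951 ± 0.491 CPM (the usual scaling of counts by library size, here after TMM adjustment) under hypoxia and 16.5 ± 3.86 under normoxia (SD, n = 3 each). KRT14, a keratin of basal squamous cells, was absent, with 0 counts in 5 libraries and 1 count in normoxia replicate 2.

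ETS factors share a winged helix-turn-helix domain that binds DNA around the core sequence GGAA, and differ in partners and in whether they activate or repress. ELF3, EHF and SPDEF are known for epithelial and secretory differentiation, ETS1 and ETS2 for growth, invasion and vessel formation, and ETV4 and ETV5 of the PEA3 group as nuclear endpoints of fibroblast growth factor and MAPK signalling. ELK3 is a ternary complex factor that binds beside serum response factor, and ERF is a repressor held in check by ERK. The hypoxia-inducible factors bind the core ACGTG or GCGTG, so both cores were looked for upstream of the members.

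RefSeq promoter windows on GRCh38.p14, the 250 bases before a transcript start, were at hand for 7 of the 10 members, 14 windows in all. Those of ELF3 and ETS2, the members with the largest increases, are printed with the first EHF window for contrast, 5′ to 3′ on the strand of the gene. Capitals mark ACGTG or GCGTG, on either strand, and TATAAA, the letters of a TATA box.

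ELF3, chr1:202010337-202010586, plus strand: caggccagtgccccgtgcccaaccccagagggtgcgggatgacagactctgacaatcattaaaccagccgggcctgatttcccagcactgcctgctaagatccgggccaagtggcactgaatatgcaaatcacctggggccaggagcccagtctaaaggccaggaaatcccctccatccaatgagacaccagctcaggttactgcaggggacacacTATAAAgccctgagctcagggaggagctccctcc
ETS2 start 1, chr21:38804933-38805182, plus strand: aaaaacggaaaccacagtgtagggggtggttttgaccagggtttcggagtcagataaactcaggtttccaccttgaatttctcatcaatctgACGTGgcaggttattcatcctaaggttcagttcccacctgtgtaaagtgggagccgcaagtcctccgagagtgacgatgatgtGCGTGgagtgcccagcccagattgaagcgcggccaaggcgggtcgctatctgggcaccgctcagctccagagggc
ETS2 start 2, chr21:38805679-38805928, plus strand: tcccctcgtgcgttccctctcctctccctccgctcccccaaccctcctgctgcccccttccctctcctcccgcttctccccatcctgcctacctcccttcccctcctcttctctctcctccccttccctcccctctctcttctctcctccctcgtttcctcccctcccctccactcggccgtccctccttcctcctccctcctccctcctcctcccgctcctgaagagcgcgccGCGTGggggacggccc
EHF start 1, chr11:34624007-34624256, plus strand: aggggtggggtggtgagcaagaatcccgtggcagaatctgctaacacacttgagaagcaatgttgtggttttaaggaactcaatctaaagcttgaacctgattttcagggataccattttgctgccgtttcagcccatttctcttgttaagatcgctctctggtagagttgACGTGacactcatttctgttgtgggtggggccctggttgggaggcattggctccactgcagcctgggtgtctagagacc

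The ELF3 window held TATAAA with its first base 34 bases before the start, and neither ACGTG nor GCGTG. The first ETS2 window held ACGTG 158 bases and GCGTG 75 bases before the start, and the second held GCGTG 16 bases before it. The first EHF window held ACGTG 79 bases before its start, and the second, not printed, held it 12 bases before. Over 35116 windows of 27305 genes, 43.2% held ACGTG or GCGTG on either strand and 10.7% held TATAAA, against 9 and 2 of the members' 14 windows. The ETS core GGAA was in 92.7% of all windows, and its longer form CCGGAA, in 14.5% of all windows, was in none of the 14. These matches are letters in a window, not binding sites.

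The 9 members with enough counts for testing moved in both directions. ELF3, ETS2 and ERF were higher under hypoxia, ETS1, EHF, ELK3, ETV4 and ETV5 were lower, and ELF1 was not called in either direction. These directions use the call applied to every gene of the table, an adjusted p under 0.05 in edgeR, which 8 of these 9 and 77.8% of all 14255 genes met (39.2% higher and 38.5% lower). As the members were selected on this contrast, nothing is read from that count. The same 8 had library values that did not overlap between the conditions, against 80.5% of tested genes at large. The 9 had a median log2-fold change of -0.50. In what follows, values of replicates 1 to 3 are given in that order, and each log2-fold change is from the edgeR fit.

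**Figure D1:**
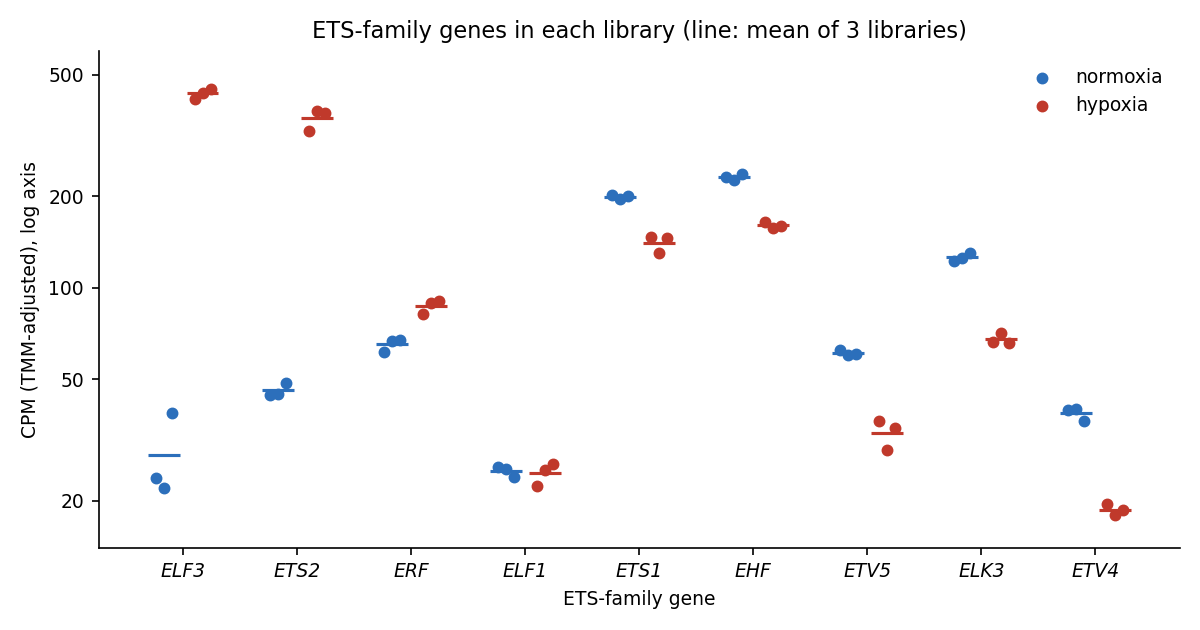
CPM (log axis) of the 9 tested members in each library, blue for normoxia and red for hypoxia, with a line at the mean of 3 libraries. ELF3 and ETS2 sit between 327 and 451 CPM under hypoxia and at 48.7 CPM or below under normoxia, while ELF1 overlaps between the conditions.

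ELF3, an epithelial ETS factor also induced by inflammatory signals, showed the largest difference of the members. It had 12728, 16216 and 14630 counts in hypoxic cells against 882, 632 and 1144 in normoxic cells. Its CPM were 417, 436 and 451 in hypoxic cells against 23.7, 22.1 and 38.7 in normoxic cells. Every hypoxia library was far above every normoxia library, and normoxia replicate 3 was the highest of the normoxia libraries. The means were 435 ± 17.1 and 28.2 ± 9.14 CPM (SD, n = 3 each), a log2-fold change of 3.95 with a standard error of 0.139, or 15.5-fold. Of all genes tested, 219 (1.54%) had a larger increase.

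The spread of ELF3 under normoxia, a coefficient of variation of 32.5%, was also found for some hypoxia response genes in the same libraries. The highest normoxia library was 1.75 times the lowest for ELF3, against 1.09 times for ETS2. NDRG1, a stress gene strongly induced by low oxygen, stood at 163, 140.4 and 409 CPM in normoxia replicates 1 to 3. CA9, a carbonic anhydrase and a classical target of hypoxia-inducible factor, stood at 32.2, 27.3 and 67.7 CPM. EGLN3, an oxygen-sensing prolyl hydroxylase, stood at 5.86, 3.74 and 10.7 CPM. Of the 15 hypoxia response genes, 13 were highest in normoxia replicate 3, the 3 named (chosen after their values were seen) were the only ones with a highest-to-lowest ratio at or above that of ELF3 (1.05 to 1.41 for the rest), and ADM, a vasodilator peptide, stood at 17.9, 17.9 and 16.8 CPM. The part of normoxia replicate 3 in the ELF3 spread was not tested. Without normoxia replicate 3 the log2-fold change of ELF3 was 4.23. The standard error of the ELF3 change depended on the method. Over all libraries it was 0.266 under the DESeq2 Wald test and 0.0657 in edgeR with no filter on low counts.

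ETS2, a widely expressed activator phosphorylated by ERK, had 9992, 14126 and 12141 counts in hypoxic cells against 1660, 1286 and 1441 in normoxic cells. Its CPM were 327, 379.8 and 374 in hypoxic cells against 44.6, 44.9 and 48.7 in normoxic cells. The normoxia libraries lay within 1.09-fold of one another, and the lowest hypoxia library was still far above them. The means were 360.4 ± 28.9 and 46.1 ± 2.28 CPM (SD, n = 3 each), a log2-fold change of 2.97 with a standard error of 0.0673, or 7.82-fold. A larger increase was found for 510 genes (3.58% of those tested), and ELF3 and ETS2 were the only members among the 8.66% of tested genes that were called higher with a log2-fold change above 2.

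ERF, the ERK-regulated repressor of the family, differed by much less. Its CPM were 81.9, 88.9 and 90.7 in hypoxic cells against 61.6, 67.0 and 67.3 in normoxic cells. The groups did not overlap, and the means of 87.2 ± 4.66 and 65.3 ± 3.22 CPM (SD, n = 3 each) gave a log2-fold change of 0.42 (SE 0.060).

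ETS1, the founding member of the family and the closest relative of ETS2, was lower under hypoxia. Its CPM were 146, 129.9 and 146 in hypoxic cells against 201, 195 and 199.8 in normoxic cells, without overlap. The means were 140.5 ± 9.22 and 199 ± 3.18 CPM (SD, n = 3 each), and the log2-fold change was -0.50 (SE 0.0562).

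EHF, the epithelial relative of ELF3, was also lower. It stood at 165, 157 and 159.9 CPM in hypoxic cells against 230.5, 226 and 237 CPM in normoxic cells. Both groups were tight, and no hypoxia library reached a normoxia library. The log2-fold change was -0.53 (SE 0.0505).

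ELK3, the ternary complex factor, fell further. Its CPM were 66.5, 70.9 and 65.9 in hypoxic cells against 122, 125 and 130.2 in normoxic cells. With means of 67.8 ± 2.72 and 126 ± 4.04 CPM (SD, n = 3 each), hypoxia was at 53.8% of the normoxia level, a log2-fold change of -0.89 (SE 0.0551).

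The PEA3 factors ETV4 and ETV5 were lower by similar amounts. ETV4 stood at 19.5, 17.9 and 18.6 CPM under hypoxia and at 39.8, 39.95 and 36.5 CPM under normoxia, with a log2-fold change of -1.06 (SE 0.0750), the largest decrease among the members. ETV5 stood at 36.4, 29.3 and 34.7 CPM under hypoxia and at 62.4, 60.1 and 60.6 CPM under normoxia, with a log2-fold change of -0.87 (SE 0.0740). Neither gene overlapped between the conditions, and 1346 tested genes (9.44%) had a larger decrease than ETV4.

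ELF1, a broadly expressed factor best known from lymphoid cells, overlapped between the conditions. Its CPM were 22.4, 25.3 and 26.4 in hypoxic cells against 25.8, 25.4 and 23.9 in normoxic cells, and the log2-fold change was -0.02 (SE 0.0825). SPDEF, a factor of secretory epithelium, was too low to test. It had 1, 0 and 6 counts in hypoxic cells and none in normoxic cells, where 3 counts, the most that a count of 0 allows, correspond to 0.0806 to 0.105 CPM over the libraries.

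The family was then compared per unit of gene length, with the FPKM that the authors deposited. Under normoxia ETS1 (32.2 ± 1.05 FPKM), EHF (30.3 ± 1.07) and ELK3 (28.3 ± 0.928) were the highest members (SD, n = 3 each). Single libraries of ETS1 and EHF overlapped, as did those of EHF and ELK3, so neighbours in that order were not separated. ERF followed at 20.6 ± 0.807 FPKM, then ETV5 at 14.7 ± 0.519 and ETV4 at 14.1 ± 0.699, which overlapped. ELF3 at 8.35 ± 2.75, ETS2 at 6.11 ± 0.328 and ELF1 at 5.24 ± 0.238 FPKM were the lowest measured members, apart from SPDEF, and the libraries of ELF3 and ETS2 overlapped.

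Under hypoxia the order was another one. ELF3 reached 133 ± 5.21 FPKM and ETS2 49.3 ± 4.24 FPKM, and neither overlapped with any other member (SD, n = 3 each). ERF at 28.4 ± 1.60, ETS1 at 23.5 ± 1.26 and EHF at 21.7 ± 0.436 FPKM came next, with ETS1 and EHF overlapping in their libraries. ELK3 stood at 15.8 ± 0.842, ETV5 at 8.32 ± 0.832 and ETV4 at 6.99 ± 0.243 FPKM.

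Of 28 ETS-family genes in human, 24 had a row, and their FPKM were summed in each library. The sum was 335, 354 and 349.9 under hypoxia and 215, 207 and 219 under normoxia, a ratio of means of 1.62. Without ELF3 the sums were 213 ± 5.54 and 205 ± 4.06 FPKM (ratio 1.04), and without ELF3 and ETS2 they were 164 ± 1.91 and 199 ± 3.84 FPKM (ratio 0.823; SD, n = 3 each). ELF3 and ETS2 were set aside for their increases, and most of what remained were members selected on the same contrast, so these sums are a description.

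ELF3 made up 37.9%, 38.2% and 39.1% of the family FPKM in hypoxic cells against 3.32%, 3.10% and 5.24% in normoxic cells. Its rank in the family was the 9th under normoxia and the 1st under hypoxia. ETS2 made up 14.2% ± 0.816 under hypoxia and 2.86% ± 0.0846 under normoxia, and moved from rank 11 to rank 2. The share of ETS1 was 6.80% under hypoxia and 15.1% under normoxia, that of EHF 6.27% and 14.2%, and that of ELK3 4.55% and 13.3%. These shares depend on one another, since the large ELF3 term lowers the share of every other gene, which the FPKM themselves do not.

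**Figure D2:**
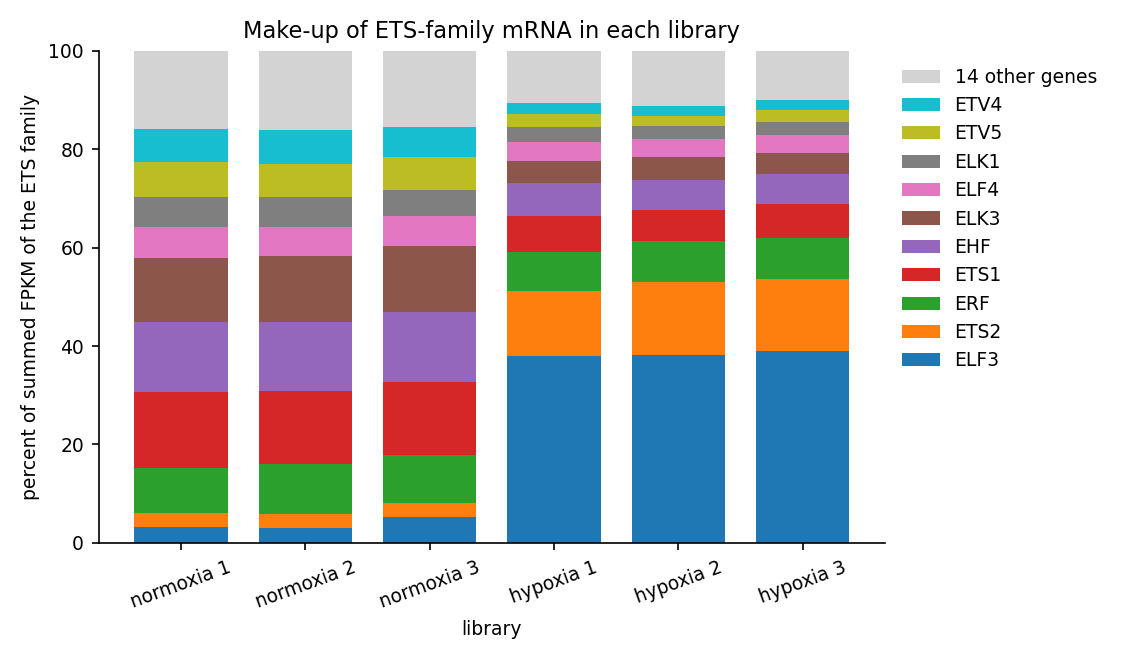
Percent of the summed FPKM of the ETS family taken by each gene, with 1 stacked bar per library and 14 low genes joined in grey. ELF3 and ETS2, the bottom segments, are small in the normoxia bars and take 38.4% and 14.2% on average in the hypoxia bars.

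Among closely related members, ETS2 and ETS1 moved apart, as did ELF3 and EHF, all of them selected on this contrast. The FPKM ratio of ETS2 to ETS1 was 1.83, 2.39 and 2.10 in the hypoxia libraries and 0.181, 0.188 and 0.199 in the normoxia libraries. The ratio of ELF3 to EHF was 5.72, 6.29 and 6.39 under hypoxia and 0.233, 0.221 and 0.369 under normoxia. In both pairs the gene that was lower under normoxia was the higher one under hypoxia, in every library. ETV4 and ETV5 kept a ratio of 0.844 ± 0.0654 under hypoxia and 0.956 ± 0.0472 under normoxia (SD, n = 3 each).

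The other family genes, which the choice of members had left aside, moved in both directions. Of 18 such genes, 10 could be tested, of which 2 were higher, 2 lower and 6 not called, in a table where 77.8% of genes were called, with a median log2-fold change of -0.02. They are what remained after members were selected on this same contrast, so nothing is read from that count or median. The adjusted p values of these genes carry the same limit. ETV1, the remaining PEA3 gene, was higher at 31.7 ± 1.37 against 21.1 ± 1.01 CPM (SD, n = 3 each), a log2-fold change of 0.59 (SE 0.0764, adjusted p = 1.7e-06 by edgeR), opposite in direction to ETV4 and ETV5. ETV6, a repressor known from leukaemic fusions, was higher at 43.7 ± 3.24 against 35.3 ± 3.28 CPM (log2-fold change 0.31, SE 0.0773, edgeR adjusted p = 0.00153).

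ELK1 and ELK4, the ternary complex factors related to ELK3, were lower. ELK1 stood at 27.7 ± 0.546 under hypoxia and 36.7 ± 2.05 CPM under normoxia (log2-fold change -0.41, SE 0.0702, edgeR adjusted p = 4.4e-05). ELK4 stood at 31.1 ± 2.52 and 36.6 ± 1.43 CPM (log2-fold change -0.23, SE 0.0739, edgeR adjusted p = 0.00874), and its call was lost when only genes with the minimum of 10 counts were kept. ELF2, ELF4, FLI1, ETV3, ETV7 and GABPA were not called, with approximate 95% intervals of the log2-fold change that lay between -0.29 and 0.34. These intervals take a normal margin of the standard error, narrower than edgeR's test allows, and that of GABPA (0.00734 to 0.335) lay wholly on the higher side. GABPA was called higher without normoxia replicate 3 (0.24, edgeR adjusted p = 0.0107) and with a minimum of 10 counts in each library (0.25, edgeR adjusted p = 0.013), and ETV3 lower without hypoxia replicate 2 (-0.17, edgeR adjusted p = 0.0402). ELF5, ETV2, ETV3L and SPI1 were too low to test, and ERG, FEV, SPIB and SPIC had no row.

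**Figure D3:**
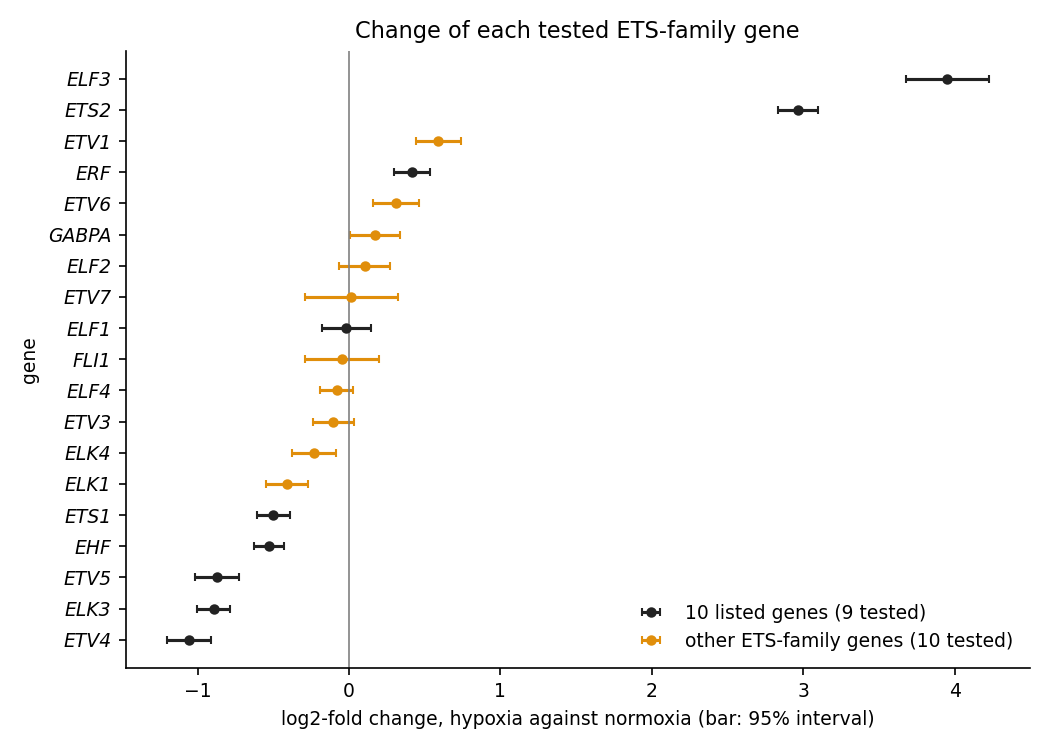
Log2-fold change, hypoxia against normoxia, of the 9 tested members (black) and 10 other tested ETS-family genes (orange), with bars of approximate 95% intervals. ELF3 at 3.95 and ETS2 at 2.97 stand apart at the right, and the other 17 genes lie between -1.06 and 0.59.

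Some ETS genes share exon sequence with other genes in GENCODE v29 on GRCh38, and the sources used here do not say whether the counting used the strand. The deposited FPKM imply shorter genes than this annotation, at 3318 bases for ELF3, 4082 for ETV5 and 2712 for ETV4. The overlap within the models used for counting is therefore not known. ELF3 shares 664 of its 7191 exon bases (9.23%) with ELF3-AS1, an antisense RNA on the opposite strand. ELF3-AS1 stood at 13.7 ± 0.976 CPM under hypoxia and 1.5 ± 0.508 CPM under normoxia (SD, n = 3 each; log2-fold change 3.20, SE 0.183, edgeR adjusted p = 4.27e-11). Counting without the strand cannot tell apart reads of the pair where their exons overlap. ETV5 shares 164 of 5802 exon bases with DGKG on the same strand, a lipid kinase gene that was also lower (log2-fold change -2.28), and ETV4 shares 68 bases with DHX8 on the opposite strand (-0.55).

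Proteins that bind, modify or degrade ETS factors were read next, over 19 tested genes, all that had a row among 22 listed symbols, former names included. Of these, 8 were higher, 7 lower and 4 not called, near the shares of all tested genes (39.2% higher and 38.5% lower), with a median log2-fold change of 0.09. This list and the lists below were chosen with earlier results of these data known, so their counts and medians are a description. CIC, the repressor of ETV4 and ETV5 that MAPK signalling relieves, was higher at 144 ± 7.84 against 63.4 ± 4.70 CPM (log2-fold change 1.18, SE 0.0635, edgeR adjusted p = 2e-11). Its partner ATXN1 was higher at 52.4 ± 2.59 against 13.1 ± 2.67 CPM (2.00, SE 0.106, edgeR adjusted p = 1.75e-11), while ATXN1L, a relative of ATXN1 that also binds CIC, was lower (-0.41, edgeR adjusted p = 3.34e-06; named after its value was seen). Among the components of COP1 ligase pathways, which mark ETV4, ETV5 and other ETS proteins for degradation, the pseudokinase TRIB2 (0.98) and the adaptor DET1 (0.65) were higher, while TRIB1 was lower (-1.05). COP1 itself, the ligase, was lower at 26.9 ± 0.135 against 34.1 ± 2.10 CPM (SD, n = 3 each; -0.34, edgeR adjusted p = 0.00033; named after its value was seen).

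SRF, the serum response factor that ELK proteins bind beside, was lower at 46.3 ± 5.68 against 72.9 ± 1.05 CPM (SD, n = 3 each; log2-fold change -0.66, SE 0.0736, edgeR adjusted p = 2.86e-07). GABPB1, the partner subunit that GABPA needs to activate, was lower at 13.9 ± 1.26 against 30.1 ± 2.02 CPM (-1.12, SE 0.0908, edgeR adjusted p = 4.33e-09), while its relative GABPB2 was higher (0.65, edgeR adjusted p = 0.00258; named after its value was seen) and GABPA itself was not called. CBFB, the subunit that stabilises RUNX proteins on DNA, was lower (-0.95), and RUNX1, which cooperates with ETS1, was higher by little (0.19, SE 0.0514, edgeR adjusted p = 0.00289; named after its value was seen).

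Genes that report MAPK output, the signal upstream of the PEA3 and ternary complex factors, were read over 10 tested genes. Of these, 7 were lower, 1 higher and 2 not called, with a median log2-fold change of -1.05, where 38.5% of the genes tested were lower and 39.2% higher. As this list was chosen with earlier results known, nothing is read from its count or median. CCND1, the D-type cyclin of cell cycle entry, stood at 97.1 ± 3.56 under hypoxia and 451 ± 50 CPM under normoxia (log2-fold change -2.21, SE 0.0712, edgeR adjusted p = 5.3e-14). The MAPK phosphatase DUSP4 (-1.38) and the receptor signalling inhibitors SPRY2 (-1.30) and SPRY4 (-1.23, edgeR adjusted p = 3.27e-08) were lower as well. DUSP6, the ERK phosphatase, differed less, at 41.3 ± 3.38 against 50.8 ± 3.94 CPM (-0.30, SE 0.0734, edgeR adjusted p = 0.0014). SPRED1, a Ras pathway inhibitor and the gene called higher (0.16, edgeR adjusted p = 0.0445), lost that call when any 1 library was left out.

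Genes of the serum response, which SRF and the ternary complex factors share, did not move one way. Of 12 tested, 5 were higher, 4 lower and 3 not called, where 77.8% of all tested genes were called (median log2-fold change 0.10). FOS, the immediate early transcription factor, was higher, at 14.5, 27.5 and 25.6 CPM in hypoxic cells against 1.88, 1.92 and 1.99 CPM in normoxic cells (log2-fold change 3.55, SE 0.211, edgeR adjusted p = 7.26e-11). JUNB, its partner in AP-1, was also higher (1.57), as were the nuclear receptor NR4A1 (0.47) and the focal adhesion protein vinculin, VCL (0.22). CCN1, a matrix signalling protein, was lower at 68.2 ± 11.3 against 281 ± 29.3 CPM (-2.04, SE 0.0950, edgeR adjusted p = 3.43e-12). The survival factor MCL1 (-0.29) and IER2 (-0.21) were lower by little, beside SRF itself, which also belongs to this list. With a minimum of 10 counts in each library, 3 genes of this list were called lower, of the same 12 tested.

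Described targets of ETS1, ETS2 and the PEA3 factors in matrix and invasion moved in both directions. Of 13 tested of 18 listed, 8 were higher, 3 lower and 2 not called, with a median log2-fold change of 0.63 (0.36 over 18 genes with no filter), where 39.2% of all tested genes were higher and 38.5% lower. ITGA5, an integrin chain of the fibronectin receptor, was higher at 433 ± 29.3 against 99.7 ± 8.89 CPM (SD, n = 3 each; log2-fold change 2.12, SE 0.0683, edgeR adjusted p = 5.3e-14). The integrin ITGB3 (4.43) and the gelatinase MMP2 (2.71) were higher as well. The collagenase MMP1 was lower, at 12 to 47 counts under hypoxia and 180 to 321 counts under normoxia per library (log2-fold change -3.13, SE 0.326, edgeR adjusted p = 1.1e-07). The urokinase PLAU (-1.32) and its receptor PLAUR (-0.35) were lower too. Fibroblast markers, which can come with matrix genes, summed to 17.1 to 22.1 CPM under hypoxia and 3.15 to 5.65 CPM under normoxia, led by COL1A1, and their part in these values was not tested. Of the 6, COL1A1 was called higher and PDGFRB was not called (0.96, edgeR adjusted p = 0.0507). LUM had 27, 9 and 8 counts in hypoxic cells against 1, 1 and 2 in normoxic cells, COL1A2 had 9 or fewer in any library, DCN 4 or fewer and COL3A1 2 or fewer.

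Among described vascular targets, 7 of 12 could be tested, of which 4 were higher and 3 lower (median log2-fold change 1.14), where 39.2% of all tested genes were higher and 38.5% lower. That median turned to -0.38 over the 5 genes with a minimum of 10 counts in each library. VEGFA, the vessel growth factor, was higher at 1278 ± 65.7 against 184 ± 18.7 CPM (2.80, SE 0.0699, edgeR adjusted p = 4.25e-15), and HMOX1, the haem oxygenase, was higher (1.74). The other higher genes, NOS3 and CDH5, had 1 to 34 counts per library. The number of higher genes fell to 3 when hypoxia replicate 1, hypoxia replicate 3, normoxia replicate 1 or normoxia replicate 2 was left out. CDH5 led the endothelial markers, which summed to 1.32 to 1.70 CPM under hypoxia and 0.296 to 0.744 CPM under normoxia, and whose part in these values was not tested. NRP1, a coreceptor of VEGF, was lower (-1.17), as were ENG (-0.54), a coreceptor of TGF-β, and ANGPT1 (-0.46), the ligand of the TIE2 receptor. FLT1, a VEGF receptor, had at most 1 count in any library and could not be tested.

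Described epithelial targets of ELF3, EHF and SPDEF were split. Of 14 tested of 20 listed, 6 were higher, 7 lower and 1 not called, against 77.8% called of all tested genes. Their median log2-fold change of -0.03 turned to 0.17 over the 11 genes with a minimum of 10 counts in each library. CDH1, the adhesion protein E-cadherin, was higher at 479 ± 4.85 against 188 ± 10.9 CPM (1.35, SE 0.0538, edgeR adjusted p = 5.77e-13), and so was the mucin MUC1 at 104 ± 3.07 against 23.4 ± 4.66 CPM (2.15, SE 0.0952). The protein folding enzyme AGR2 (2.59) and the peptidase KLK10 (1.60) were higher from low levels.

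TGFBR2, a TGF-β receptor and a described ELF3 target, was lower at 119 ± 7.14 against 260 ± 15.5 CPM (SD, n = 3 each; log2-fold change -1.13, SE 0.0600, edgeR adjusted p = 1.7e-11). SPRR2A, a protein of the cornified envelope, had 5, 2 and 5 counts in hypoxic cells against 195, 170 and 51 counts in normoxic cells. Its relative SPRR1B had 8, 10 and 0 counts under hypoxia and 105, 69 and 39 counts under normoxia. Both were called lower, on few counts. The chemokine CXCL5 (-1.48) and the serpin SERPINB5 (-1.30) were lower at higher counts.

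Described targets of GABPA, mostly genes of mitochondria beside the cell cycle gene SKP2, moved in both directions. Of 8 tested, 5 were lower, 2 higher and 1 not called, with a median log2-fold change of -0.65, where 38.5% of the genes tested were lower and 39.2% higher. TFB2M, a mitochondrial transcription factor, was lower at 6.65 ± 0.697 against 24.4 ± 1.28 CPM (SD, n = 3 each; -1.88, SE 0.104, edgeR adjusted p = 2.95e-11). TFAM, which packages mitochondrial DNA, was lower (-0.86), as were SKP2 (-0.81) and the mitochondrial RNA polymerase POLRMT (-0.75). TFB1M (0.32) and the respiratory chain subunit COX5B (0.15) were higher by little, and 1 of these calls was lost when hypoxia replicate 3, normoxia replicate 1 or normoxia replicate 2 was left out.

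**Figure D4:**
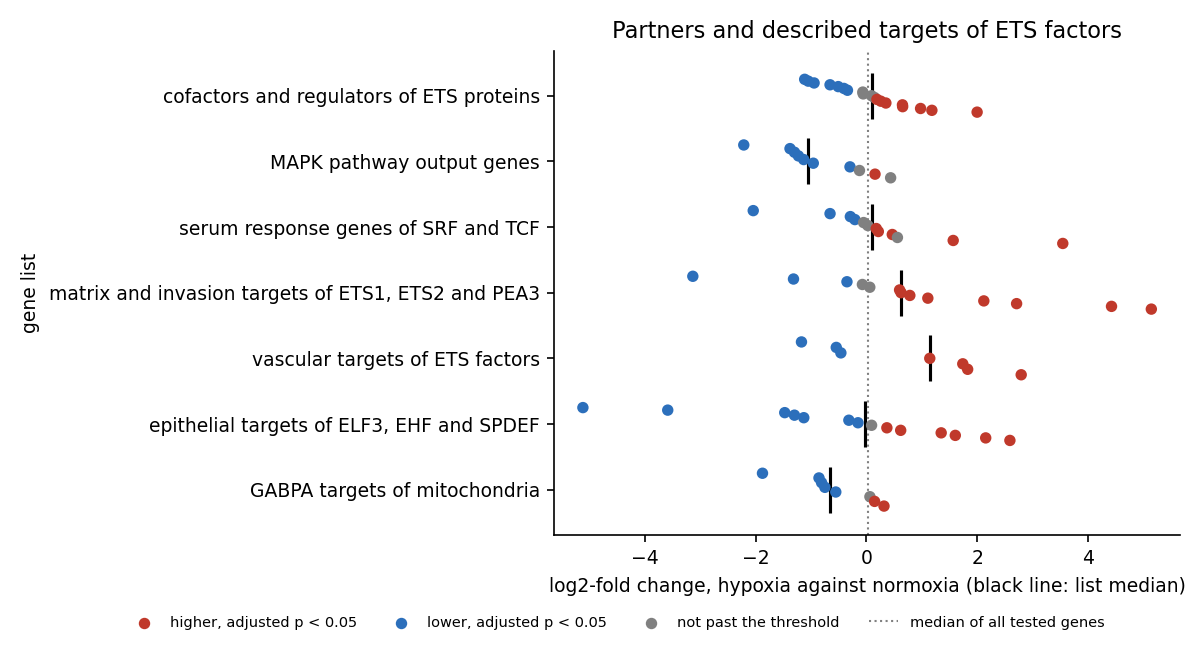
Log2-fold change, hypoxia against normoxia, of each tested gene in 7 lists of ETS partners and described targets, coloured by the edgeR call, with a black line at each list median and a dotted line at the median of all tested genes (0.02). The MAPK output and GABPA lists have medians of -1.05 and -0.65, the matrix list of 0.63, and the vascular list of 1.14, which turns to -0.38 over its 5 genes with at least 10 counts in each library. The lists were chosen with earlier results of these data known.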

How the data were processed

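RNA was isolated with a column kit and libraries were made with a SMARTER mRNA kit, per the labels. The authors deposited counts of reads per gene, as whole numbers without normalization, and FPKM of the same genes. For each ETS-family gene the deposited FPKM followed from the counts, the library total and 1 gene length. The submitters' processing notes name only the mouse builds GRCm38 and mm10. The aligner, counter and strand setting are not given in the sources used here. No pair of replicates matched within sampling noise (chi-square per gene 5.11 to 11.5), and each library was 1 replicate.

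Counts were tested in R 4.3.3 with edgeR 4.0.16 by the quasi-likelihood F test, with a single term for condition, after TMM normalization and filterByExpr (14255 of 21776 genes), and with Benjamini-Hochberg adjustment at 0.05 over all tested genes. The biological coefficient of variation was 0.0685. A standard error is the log2-fold change divided by the square root of F. Differences of log2(FPKM + 1) used no test. Scripts were tested on simulated data.

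The members, lists and naming rule were chosen with earlier results of these data known. Named were all members, each other family gene that passed the test, up to 4 called genes per direction and list with a mean of at least 1 CPM, and VEGFA, FLT1, TGFBR2, DUSP6, SPRY4, CIC and GABPB1; a further gene that the rule names is not reported here, and marker and hypoxia response genes, NOS3, CDH5, RUNX1, COP1, ATXN1L, GABPB2, GABPA, ETV3 and the neighbouring genes were named after their values were seen. Alternatives were DESeq2 1.42.0 (size factors and Wald test), no filter, at least 10 counts in every library, a replicate block, each library left out, a pseudocount of 0.1 and TPM. Promoter windows came from RefSeq. Limits of a count of 0 (3 counts) cover counting error only.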

Additional observations from a re-analysis of the deposited data

How the results depend on the processing

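The members were selected on the contrast, so their values under other settings are a description and lend it no support. The settings were DESeq2's size factors, the DESeq2 Wald test, no filter, a minimum of 10 counts in each library, the replicate block and each library left out. Over these settings the log2-fold change ranged from 3.80 to 4.23 for ELF3, from 2.93 to 3.05 for ETS2, from 0.36 to 0.50 for ERF, from -0.54 to -0.42 for ETS1, from -0.57 to -0.45 for EHF, from -0.93 to -0.82 for ELK3, from -1.11 to -0.98 for ETV4 and from -0.94 to -0.78 for ETV5. ELF1, which was never called, turned to 0.058 with the minimum of 10 counts, and leaving out 1 library gave -0.075 to 0.039 (0.039 without hypoxia replicate 1). Of the other family genes, ETV7 turned to -0.025 with no filter, -0.094 without hypoxia replicate 2 and -0.091 without normoxia replicate 3 (-0.094 to 0.112 with a library left out), and FLI1 to 0.031 with the minimum of 10 counts and 0.024 without normoxia replicate 2 (-0.171 to 0.024).

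The count of all genes called was 9967 to 11920 over the settings. With no filter the matrix list had 5 lower genes and the GABPA list 1 higher gene (1 to 2 with a library left out). With at least 10 counts in every library the vascular list had 2 higher genes and the epithelial list 4 lower genes, with 5 and 11 genes tested in place of 7 and 14. The other family genes, still 10, had 1 lower gene (ELK4 lost its call at -0.15, adjusted p = 0.0671) and 3 higher genes (GABPA was called at 0.25, adjusted p = 0.013). The MAPK list had 0 higher genes under the DESeq2 Wald test, with no filter, with the replicate block and in each fit with a library left out (0 to 0). With a library left out, the other lists had 7 to 8 (cofactors), 4 to 5 (serum response), 7 to 9 (matrix) and 3 to 4 (vascular) higher genes, and the epithelial list had 6 to 7 lower genes. The median of the epithelial list turned to 0.00060 without hypoxia replicate 2, and that of the other family genes to 0.062 with the minimum of 10 counts, 0.045 without hypoxia replicate 3 and 0.037 without normoxia replicate 2. On the log2 FPKM scale ETS2 differed by 2.82 with a pseudocount of 1, 2.99 with 0.1 and 2.94 as TPM, and ETV4 by -0.91 and, with 0.1, by -0.996. Same-numbered libraries did not deviate together (correlations of 0.018, -0.069 and 0.0012), so no shared effect of the number was seen. These correlations cannot say how the cultures were paired. The replicate block gave 10875 called genes. Of 526 values recomputed under an alternative, 495 were classed as the same. For a log2-fold change this meant the same direction and call, and for a count of genes a value within a set ratio of the one reported. For an FPKM difference or share it meant a move smaller than the spread between libraries.

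Against the fit reported, the minimum of 10 counts shifted log2-fold changes by a median of 0.078 and no filter shifted them by -0.041, so changes of that size, such as those of ELF1, FLI1 and ETV7, have no settled direction. Depth limits SPDEF, FLT1, ELF5, ETV2, ETV3L and SPI1, which had 9 counts or fewer in every library. With 3 libraries a condition, of unstated origin, the errors cover only the spread between these libraries.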

Other observations

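Neighbouring genes, by RefSeq gene order, did not all move in the direction of the member beside them. Both neighbours of ETV5, TRA2B (-1.11) and DGKG (-2.28), were lower as ETV5 was, while those of ELK3, LTA4H (0.69) and CDK17 (0.22), were higher. ERF lies next to CIC on chromosome 19, and both were higher (0.42 and 1.18), while GSK3A on the other side of ERF was lower (-0.75). ELF3 lies next to GPR37L1, a receptor gene at 1.15, 1.51 and 0.678 CPM in hypoxic cells against 0.0269, 0.175 and 0 CPM in normoxic cells (log2-fold change 4.06), and next to RNPEP on the other side (0.27). EHF lies next to APIP (-0.79), and ETS2 next to PSMG1 (-1.39), opposite in direction to ETS2.

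Over 6 libraries, the genes of at least 10 CPM whose log2 CPM followed that of ELF3 most closely were CACNB3, SLC16A3 and DDIT4 (Pearson r of 0.9999 each), and those closest to ETV4 were TNFRSF10A, DAZAP1 and ANXA7 (0.9999 each). Pearson r leaves out the size of a change. The log2-fold changes were 1.48, 1.01 and 3.74 beside 3.95 for ELF3, and -1.29, -0.831 and -0.829 beside -1.055 for ETV4. With only 6 libraries in 2 conditions, 932 of 9282 genes had r above 0.99 with ELF3 and 1902 with ETV4, so many genes lay as close.

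The leukocyte markers summed to 33.8 to 39.9 CPM under hypoxia and 33.0 to 35.9 CPM under normoxia, led by CD68, which was not called. PTPRC and CD3E were at 2 counts or fewer in every library, and CD14, a receptor for bacterial lipopolysaccharide, was higher under hypoxia at 5.83 ± 0.445 against 1.07 ± 0.481 CPM (SD, n = 3 each; log2-fold change 2.45, edgeR adjusted p = 7.27e-08). Of the fibroblast markers, COL1A1, the chain of type I collagen, was higher at 17.97 ± 2.02 against 3.76 ± 1.17 CPM (2.26, edgeR adjusted p = 1.02e-09).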
